A study of Homo sapiens with 34 samples.

Results

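The genes described here are 9 genes that both the glucocorticoid receptor and the androgen receptor are known to switch on: FKBP5, TSC22D3, PER1, ZBTB16, SGK1, KLF9, DUSP1, ERRFI1 and CEBPD. They were taken from the count table by symbol, whatever their values, and are 9 of its 26336 genes. Poly(A) RNA had been sequenced from 4 human prostate cell lines: RWPE, which is non-tumorigenic epithelium, LNCaP, from a lymph node metastasis, and VCaP and MDAPCa2a, both from bone metastases. The question of the series was how these cells behave on amorphous calcium phosphate (ACP), a mineral coating that stands in for bone, with and without androgen. The question for these 9 genes was how their levels followed the line, the medium and the surface, and where MDAPCa2a differed from the other lines.

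The 34 libraries formed 17 groups. Each line was grown on plastic in its own control medium. LNCaP had RPMI and VCaP had DMEM with F12, both with 10% fetal serum, MDAPCa2a had BRFF-HPC1 base medium with 20% fetal serum, and RWPE had keratinocyte medium with EGF and bovine pituitary extract. No glucocorticoid is listed among the additions in the labels, and the make-up of the base media is not given there. LNCaP, VCaP and MDAPCa2a were also grown on plastic in medium whose serum had been stripped with charcoal and dextran, which takes out steroid hormones. On ACP the groups were control medium (RWPE, LNCaP, VCaP), stripped medium (LNCaP, VCaP, MDAPCa2a) and stripped medium with added androgen (all 4 lines). The labels give the androgen as DHT in one place and as testosterone in another, at 100 mM, a very high concentration for a hormone, and whether the unit is right could not be settled here. For RWPE, whose medium holds no serum, they do not say what replaced the stripped serum. Groups on ACP and in stripped medium were taken on day 4, and the plastic control groups are labelled as continuous culture although the protocol describes the same 4 days for them. The plastic under MDAPCa2a carried a protein coat and the ACP did not, so in that line coating and surface change together. All groups had 2 libraries, apart from RWPE with androgen (3) and VCaP on plastic in stripped serum (1, with no replicate). Nothing in the labels says that replicates were separate cultures, so p-values measure the spread between libraries, which may be technical.

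Libraries held 15.4 to 44.8 M counts, 34.9 to 44.8 M in the 8 plastic control libraries and 15.4 to 37 M in the other 26. Levels are in counts-per-million (CPM) and are compared between libraries, never between genes. Luminal prostate markers summed to 12441 to 20950 CPM in MDAPCa2a, where 9 of 9 had reads in every group, and basal markers to 21.9 to 46.9 CPM, against 827 to 1494 and 3693 to 17208 CPM in RWPE. In plastic control all 9 liver markers had reads in every line, while in each other group 1 to 5 of them were at 0. The summed levels of other tissues' markers were not higher in plastic control throughout: in VCaP liver markers summed to 86.4 to 177 CPM in plastic control and 190.4 CPM in plastic stripped, and in LNCaP fibroblast markers to 45.4 to 51.3 and 48 to 53.4 CPM. Blood and immune markers were higher there in LNCaP (10.5 to 10.9 CPM, at most 1.72 CPM in its other groups) and RWPE (14.5 to 17.9 and at most 1.81 CPM). In VCaP they overlapped, at 6.5 to 11.8 CPM in plastic control and 7.17 to 13.6 CPM in ACP stripped. RWPE fibroblast markers summed to 222 to 266 CPM in plastic control and at most 143 CPM on ACP. In MDAPCa2a the 8 blood and immune markers summed to 5.52 to 6.75 CPM in plastic control, with CD3E and TYROBP at 0, and to 0.323 to 0.365 CPM in plastic stripped, with PTPRC, CD74, CD163, CD3E, MS4A1 and TYROBP at 0. The 9 liver markers summed to 27.5 to 33.6 and 18 to 18.1 CPM in those groups, and the 7 fibroblast markers to 10.2 to 13.5 and 2.06 to 2.46 CPM. In every comparison against plastic control, such a difference between sets of libraries and the medium or surface cannot be told apart.

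Glucocorticoid and androgen receptors are transcription factors that wait in the cytoplasm in a complex with HSP90 and its co-chaperones. Hormone binding releases them to the nucleus, where both can bind the same inverted repeat of a short DNA motif, so that 1 receptor can switch on genes of the other. FKBP5 encodes FKBP51, a co-chaperone that lowers the hormone affinity of the glucocorticoid receptor and so feeds back on that receptor. TSC22D3 encodes GILZ, an anti-inflammatory regulator, PER1 a repressor of the circadian clock, ZBTB16 the zinc finger repressor PLZF, KLF9 a Kruppel-like factor and CEBPD a bZIP factor. SGK1 encodes a kinase of sodium transport and cell survival, DUSP1 a phosphatase that switches off MAP kinases, and ERRFI1 an inhibitor of the EGF receptor.

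RefSeq start sites (GRCh38.p14) gave 13 windows of 300 bases, from 250 before to 50 after the start, for 7 of the 9 genes. Windows of FKBP5, PER1 and SGK1, which rose together in MDAPCa2a in stripped serum on plastic, and of DUSP1, which did not pass there, are printed 5′ to 3′ on the gene's strand, with matches in capitals. Of the 3 SGK1 windows the 1 with a match is shown, and the other 2 hold none of the motifs searched. Searched on both strands were AGAACA, which is 1 arm of the receptor element, the full element of that arm, any 3 bases and its reverse complement, the cyclic AMP response element TGACGTCA and its core TGACG, which lies within it. The build differs from that of the counts (hg19), and the windows were not used in any count.
FKBP5, chr6:35688866-35689165: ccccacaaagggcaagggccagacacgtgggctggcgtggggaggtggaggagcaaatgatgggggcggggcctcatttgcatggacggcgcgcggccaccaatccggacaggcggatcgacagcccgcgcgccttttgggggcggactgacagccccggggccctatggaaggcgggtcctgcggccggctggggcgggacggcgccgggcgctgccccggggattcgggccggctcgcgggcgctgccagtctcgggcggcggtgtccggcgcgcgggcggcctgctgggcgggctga
FKBP5, chr6:35728534-35728833: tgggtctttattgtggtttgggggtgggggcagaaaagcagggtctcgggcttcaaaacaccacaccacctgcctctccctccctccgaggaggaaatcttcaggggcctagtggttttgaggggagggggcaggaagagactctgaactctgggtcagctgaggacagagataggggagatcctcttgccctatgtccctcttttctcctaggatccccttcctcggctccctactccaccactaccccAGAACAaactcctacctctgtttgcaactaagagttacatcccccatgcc
SGK1, chr6:134177812-134178111: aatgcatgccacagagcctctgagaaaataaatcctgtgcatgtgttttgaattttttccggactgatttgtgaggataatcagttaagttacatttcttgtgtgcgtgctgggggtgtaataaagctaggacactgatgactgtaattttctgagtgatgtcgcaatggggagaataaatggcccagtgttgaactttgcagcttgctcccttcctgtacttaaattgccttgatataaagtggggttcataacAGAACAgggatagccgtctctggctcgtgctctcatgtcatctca
PER1, chr17:8152355-8152654: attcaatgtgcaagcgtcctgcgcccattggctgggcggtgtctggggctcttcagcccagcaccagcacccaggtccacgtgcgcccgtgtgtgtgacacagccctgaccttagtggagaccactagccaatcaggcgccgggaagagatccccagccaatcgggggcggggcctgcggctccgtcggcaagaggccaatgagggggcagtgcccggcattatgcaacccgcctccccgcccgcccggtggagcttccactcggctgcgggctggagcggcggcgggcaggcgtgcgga
DUSP1, chr5:172771146-172771445: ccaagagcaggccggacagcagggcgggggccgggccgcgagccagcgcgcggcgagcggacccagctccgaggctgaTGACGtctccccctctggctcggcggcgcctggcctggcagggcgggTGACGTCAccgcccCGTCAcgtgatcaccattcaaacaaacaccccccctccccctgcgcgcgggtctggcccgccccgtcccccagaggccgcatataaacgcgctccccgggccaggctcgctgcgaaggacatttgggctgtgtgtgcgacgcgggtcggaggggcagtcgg
The arm AGAACA was found in 2 of the 13 windows, 1 of FKBP5 and 1 of SGK1, starting 1 and 6 bases after the start site. It is common: 14.8% of all 35116 promoter windows hold it. The full receptor element was in 0 of the 13 windows and in 1 of 35116. TGACGTCA lay in the DUSP1 window and in 1.85% of all windows, and TGACG in windows of DUSP1 and TSC22D3 and in 24.6% of all. These are matches of letters, and receptor binding was not measured.

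All 9 genes passed the filter on low counts in every comparison. In bulk RNA, fewer cells that carry a transcript and less of it per cell cannot be told apart. FKBP5 had a lowest, median and highest library of 466, 811 and 899.6 CPM in RWPE (7 libraries), 58.5, 164 and 312 CPM in LNCaP (10), 62.5, 184 and 1054 CPM in VCaP (9) and 177, 342 and 852 CPM in MDAPCa2a (8). PER1 stood at 163, 245 and 353 CPM in RWPE, 5.71, 12.9 and 23.2 CPM in LNCaP, 6.83, 13.3 and 20.9 CPM in VCaP and 16.6, 22.3 and 64 CPM in MDAPCa2a. RWPE libraries therefore lay above every library of the other lines in PER1, and above all but VCaP with androgen and MDAPCa2a in stripped serum on plastic in FKBP5. TSC22D3 was at 158, 231 and 272 CPM in RWPE, 37.6, 97.5 and 179 CPM in LNCaP and 77.5, 89.9 and 170.1 CPM in MDAPCa2a, while the VCaP libraries lay at 2.68, 3.98 and 6.24 CPM, below every library of the other lines. KLF9 showed the same low levels in VCaP, 2.93, 12.1 and 23.5 CPM, against 49.1, 60.9 and 87.4 CPM in MDAPCa2a, 57.1, 77.7 and 102 CPM in LNCaP and 71.4, 152 and 209 CPM in RWPE. ZBTB16 was at 30.5, 41.3 and 65.1 CPM in MDAPCa2a and at no more than 33.8 CPM in any other library, and the ranges touch, since plastic control MDAPCa2a starts at 30.5 CPM. CEBPD was at 42.7, 66.3 and 90.2 CPM in RWPE and 19, 22.7 and 64.8 CPM in MDAPCa2a, SGK1 at 12.2, 34.3 and 39.2 and 0.152, 1.09 and 10.3 CPM. DUSP1 was at 81.6, 116 and 324 CPM in RWPE and 40.0, 48.3 and 72.7 CPM in MDAPCa2a, and ERRFI1 at 93.5, 104 and 160.3 and 72.6, 88.1 and 96.3 CPM. MDAPCa2a held ERRFI1 within the narrowest range of the 4 lines.

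**Figure D1:**
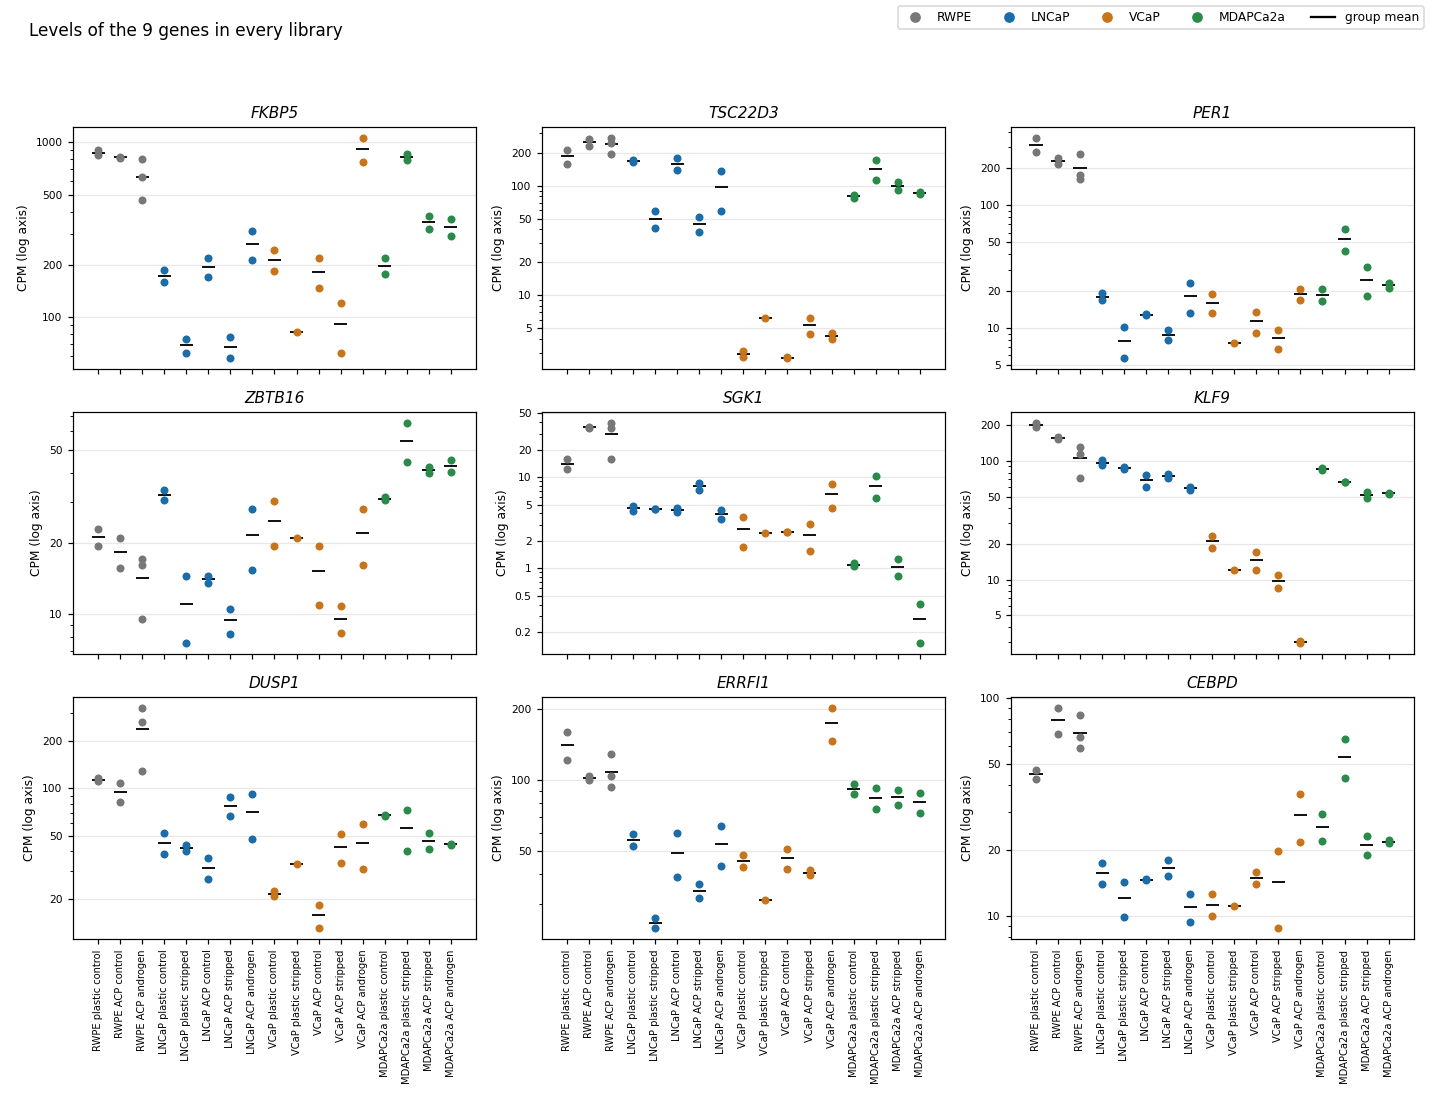
Levels of the 9 genes in CPM on a log axis, with 1 point per library, colours for the cell lines, and a black line at each group mean. In MDAPCa2a (green) the plastic stripped group stands above the plastic control group for FKBP5 (796 and 852 against 177 and 217 CPM), PER1 and SGK1, while in LNCaP (blue) it stands below for FKBP5.

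Ordered by group mean, FKBP5 was highest in VCaP with androgen on ACP (1054 and 768 CPM), followed by RWPE on plastic in control medium (845 and 899.6 CPM), MDAPCa2a on plastic in stripped serum (796 and 852 CPM) and RWPE on ACP in control medium (811 and 825 CPM). Neighbours in that order overlapped between these 4 groups. RWPE with androgen followed (466, 633 and 804 CPM), then MDAPCa2a on ACP in stripped serum (380.5 and 319.8 CPM) and with androgen (365 and 290.4 CPM), and these MDAPCa2a groups overlapped each other. LNCaP with androgen (312 and 213 CPM) came next and overlapped the second of them. The middle of the order held the control medium groups of VCaP, MDAPCa2a and LNCaP, from 148 to 243 CPM, each overlapping the next. The 4 lowest groups were the stripped ones of VCaP and LNCaP, from 58.5 to 121 CPM. MDAPCa2a was thus the line whose stripped groups did not sit at the bottom.

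On plastic, 3 lines had both control medium and stripped serum. In MDAPCa2a, FKBP5, PER1 and SGK1 were higher in stripped serum than in control medium. Steroids were not measured, and the control libraries are labelled as continuous culture, not as day 4, so culture history and serum cannot be told apart. FKBP5 was at 177 and 217 CPM in control medium and at 796 and 852 CPM in stripped serum, 4.28-fold higher. The test was edgeR's quasi-likelihood F test with Benjamini-Hochberg adjustment over all genes (log2 2.10 ± 0.21 SE, adjusted p = 0.00719), and it holds for all adjusted p that follow, with 0.05 as the threshold. SGK1 was at 1.13 and 1.05 CPM and 10.3 and 5.89 CPM, from 38 reads in each control library to 309 and 146 reads (log2 2.92 ± 0.40, adjusted p = 0.0185). PER1 was at 16.6 and 20.9 CPM and 64 and 42.8 CPM (log2 1.54 ± 0.29, adjusted p = 0.0416). No library of these 3 genes overlapped between the groups. TSC22D3 (82.7 and 77.5 to 170.1 and 114 CPM, log2 0.86 ± 0.20, adjusted p = 0.0738), ZBTB16 (30.5 and 31.4 to 65.1 and 44.4 CPM, adjusted p = 0.0651) and CEBPD (22.1 and 29.3 to 64.8 and 42.8 CPM, adjusted p = 0.0569) had no overlap either but did not pass. KLF9, DUSP1 and ERRFI1 lay at log2 -0.33, -0.22 and -0.10 and did not pass. So 3 of the 9 genes rose and 0 fell, where 1.58% of all 13626 genes tested passed in either direction. The median change was log2 0.86 for the 9 genes and -0.01 for all genes. Without any 1 of the 4 libraries all 3 calls ended (FKBP5 log2 1.94 to 2.24, adjusted p up to 0.139), while DESeq2 called 6, adding TSC22D3, ZBTB16 and CEBPD.

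LNCaP moved the other way. FKBP5 fell from 185 and 158 to 62.9 and 75.4 CPM (log2 -1.26 ± 0.23, adjusted p = 0.00719) and TSC22D3 from 171 and 164 to 58.4 and 41.5 CPM (log2 -1.70 ± 0.32, adjusted p = 0.00799). PER1 (19.3 and 16.9 to 10.1 and 5.71 CPM), ZBTB16 (30.7 and 33.8 to 14.5 and 7.55 CPM) and ERRFI1 (59.3 and 52.7 to 23.7 and 26 CPM) fell too, with adjusted p of 0.031, 0.0132 and 0.0132. For these 5 genes both stripped libraries lay below both control libraries. SGK1, KLF9, DUSP1 and CEBPD lay between log2 -0.33 and 0.01 and did not pass. That is 5 of 9 lower and 0 higher, with 9.45% of all genes called in either direction. Each of the 5 calls ended without at least 1 library. Leaving out plastic control replicate 1 ended all 5, plastic stripped replicate 1 those of FKBP5, TSC22D3 and ERRFI1, plastic stripped replicate 2 those of TSC22D3, PER1 and ZBTB16, and plastic control replicate 2 those of PER1, ZBTB16 and ERRFI1.

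In VCaP the single stripped library held FKBP5 at 82.3 CPM, against 184 and 243 CPM in control medium (log2 -1.33 ± 0.42, adjusted p = 0.122). PER1 was at 7.64 CPM against 18.8 and 13.3 CPM, and TSC22D3, at the low level of this line, at 6.24 CPM against 2.74 and 3.13 CPM. With edgeR 0 of the 9 genes passed, while 3 (FKBP5, TSC22D3 and PER1) were below 0.05 before adjustment, FKBP5 passed in DESeq2, and 0.89% of all genes passed. The lone library is assumed to vary like the other VCaP groups.

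**Figure D2:**
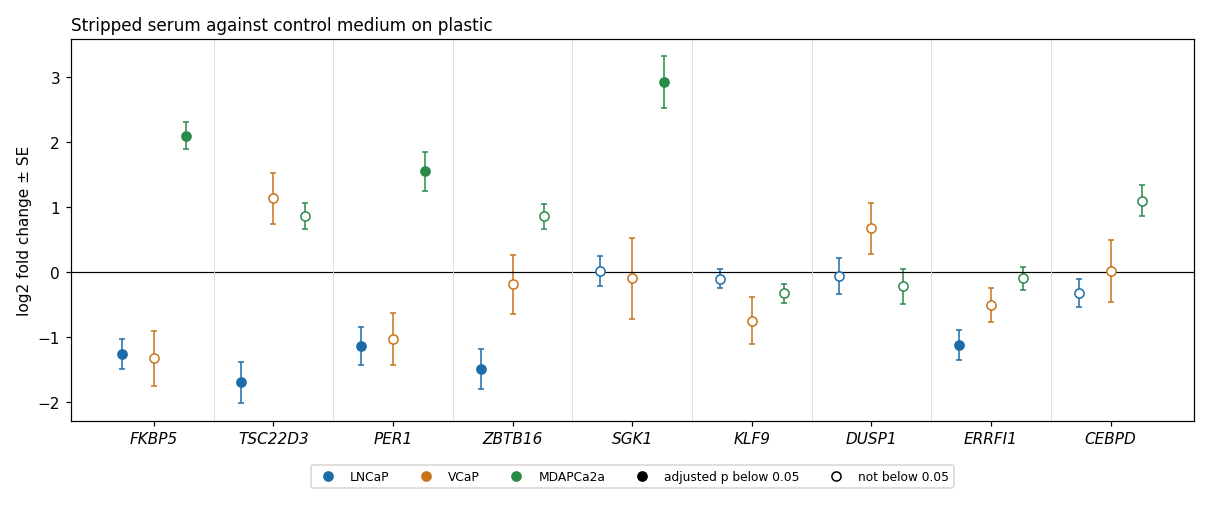
Log2 fold change with its SE for stripped serum against control medium on plastic in LNCaP, VCaP and MDAPCa2a, with filled points where the adjusted p lay below 0.05. For FKBP5 the MDAPCa2a value of 2.10 lies on the opposite side of 0 from -1.26 in LNCaP and -1.33 in VCaP.

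The difference between these effects was tested in a fit of all 34 libraries. Against LNCaP, the MDAPCa2a effect was higher for FKBP5 (log2 3.37 ± 0.41, adjusted p = 1.93e-05), SGK1 (log2 2.93 ± 0.59, adjusted p = 0.00554), PER1 (log2 2.68 ± 0.44, adjusted p = 8.18e-04), TSC22D3 (log2 2.57 ± 0.40, adjusted p = 3.63e-04) and ZBTB16 (log2 2.35 ± 0.49, adjusted p = 0.00755). Those are 5 of 9, where 1.81% of all genes passed in either direction, and the other 4 lay between log2 -0.21 and 1.44. Against VCaP the effect was higher for FKBP5 (log2 3.43 ± 0.48, adjusted p = 6.45e-04), SGK1 (log2 3.04 ± 0.70, adjusted p = 0.0154) and PER1 (log2 2.58 ± 0.52, adjusted p = 0.00709), 3 of 9, with 3.12% of all genes called. TSC22D3 differed by log2 -0.26 ± 0.47 (adjusted p = 0.856) there. FKBP5 and PER1 passed in both differences without any 1 library that could be left out. The lone VCaP plastic stripped library could not be, since its group would be empty. The ZBTB16 call ended without LNCaP plastic stripped replicate 2 or MDAPCa2a plastic stripped replicate 1, and that of SGK1 against VCaP without VCaP plastic control replicate 2, MDAPCa2a plastic control replicate 1 or MDAPCa2a plastic stripped replicate 1.

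In stripped serum, none of the 9 genes passed the threshold between ACP and plastic in MDAPCa2a. FKBP5 was at 380.5 and 319.8 CPM on ACP and 796 and 852 CPM on plastic (log2 -1.14 ± 0.21, adjusted p = 0.136). SGK1 was at 1.27 and 0.813 CPM and 10.3 and 5.89 CPM (log2 -2.86 ± 0.43, adjusted p = 0.109), PER1 at 31.4 and 18.3 and 64 and 42.8 CPM (log2 -1.01 ± 0.29), and CEBPD at 23.2 and 19 and 64.8 and 42.8 CPM (log2 -1.26 ± 0.24). TSC22D3 was at 108 and 91.7 and 170.1 and 114 CPM, ZBTB16 at 42.2 and 39.9 and 65.1 and 44.4 CPM and KLF9 at 55.1 and 49.1 and 66.7 and 66.8 CPM, with log2 values of -0.41, -0.32 and -0.27. With edgeR this was 0 of the 9 genes and 0.00734% of all genes (1 of 13626), although 2071 genes had an unadjusted p below 0.05, FKBP5, SGK1, PER1 and CEBPD among them, and DESeq2 called those 4. ERRFI1 (log2 0.10) and DUSP1 (log2 -0.18) were closest to 0. These 4 ACP and plastic libraries include no plastic control library. The protein coating, present on plastic alone, cannot be told apart from the surface.

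In LNCaP the same surface comparison gave FKBP5 at 58.5 and 77.4 CPM on ACP and 62.9 and 75.4 CPM on plastic (log2 0.01 ± 0.23, adjusted p = 0.991). SGK1 alone passed, at 8.7 and 7.22 against 4.41 and 4.44 CPM (log2 0.88 ± 0.23, adjusted p = 0.0443), 1 of 9 with 6.12% of all genes called. That call ended without each of the 4 libraries, in a fit of all 34 libraries and without the plastic control libraries. DUSP1 was at 88.5 and 67.1 and 43.5 and 39.9 CPM (adjusted p = 0.0688). VCaP had 0 of 9 called by edgeR and by DESeq2, 1 (ZBTB16) at an unadjusted p below 0.05, and 0% of all genes called. The surface effect of MDAPCa2a was lower than that of LNCaP for SGK1 (log2 -3.81 ± 0.62, adjusted p = 0.00234), which held without each library, and for no other member, with 0.358% of all genes called. CEBPD came next (log2 -1.80 ± 0.43, adjusted p = 0.0638). Against VCaP 0 of 9 and 0% of all genes passed with edgeR, with FKBP5, PER1, SGK1 and CEBPD at an unadjusted p below 0.05 and SGK1 called by DESeq2. Both surface differences between lines were added after the values had been seen.

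Stripped serum could be compared with control medium on ACP in LNCaP and VCaP, with no plastic control library. In LNCaP FKBP5 fell from 217 and 170.1 to 58.5 and 77.4 CPM (log2 -1.53 ± 0.23, adjusted p = 0.00402) and TSC22D3 from 139 and 179 to 37.6 and 52.3 CPM (log2 -1.84 ± 0.32, adjusted p = 0.00842). DUSP1 rose from 26.9 and 36 to 88.5 and 67.1 CPM (log2 1.29 ± 0.28, adjusted p = 0.0238). Libraries of these 3 genes did not overlap between media. PER1, ZBTB16 and ERRFI1, which fell with stripping on plastic, lay at log2 -0.57, -0.60 and -0.55 on ACP and did not pass. The count was 1 of 9 higher and 2 lower, with 5.37% of all genes called in either direction, and it was 0 without ACP stripped replicate 1. The DUSP1 call also ended without ACP stripped replicate 2 or ACP control replicate 1. In VCaP FKBP5 went from 148 and 217 to 62.5 and 121 CPM (log2 -0.97 ± 0.33, adjusted p = 0.178) and DUSP1 from 13.1 and 18.4 to 33.5 and 51.8 CPM (log2 1.46 ± 0.34, adjusted p = 0.0706). There edgeR called 0 of 9 and 0.82% of all genes, 3 members (FKBP5, TSC22D3 and DUSP1) were below 0.05 before adjustment, and DESeq2 called FKBP5 and DUSP1.

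With androgen on ACP, FKBP5 rose in LNCaP from 58.5 and 77.4 to 312 and 213 CPM, 3.83-fold (log2 1.94 ± 0.24, adjusted p = 9.28e-04), and in VCaP from 62.5 and 121 to 1054 and 768 CPM, 9.93-fold (log2 3.31 ± 0.35, adjusted p = 9.74e-04). In MDAPCa2a it was at 380.5 and 319.8 CPM without and 365 and 290.4 CPM with androgen (log2 -0.14 ± 0.20, adjusted p = 0.968). Libraries with and without androgen did not overlap in LNCaP or VCaP and overlapped in MDAPCa2a. Both FKBP5 calls held without each library.

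Of the other members in LNCaP, PER1 (9.64 and 7.99 to 23.2 and 13.4 CPM, adjusted p = 0.0497) and ZBTB16 (10.5 and 8.27 to 28 and 15.4 CPM, adjusted p = 0.0398) rose and SGK1 (8.7 and 7.22 to 4.32 and 3.49 CPM, log2 -1.04 ± 0.23, adjusted p = 0.0205) fell. TSC22D3 was at 58.8 and 136 CPM with androgen, 1 library near the stripped level of 37.6 and 52.3 CPM and 1 near the control level (log2 1.09 ± 0.32, adjusted p = 0.0583). That made 3 of 9 higher and 1 lower, with 7.73% of all genes called in either direction. DESeq2 called 5 members, adding TSC22D3. The PER1, ZBTB16 and SGK1 calls all ended without either ACP stripped library, those of PER1 and ZBTB16 also without ACP androgen replicate 1 and that of SGK1 without ACP androgen replicate 2. PER1 and ZBTB16 were not called once the plastic control libraries were left out of the fit, nor PER1 and SGK1 in a fit of all 34 libraries.

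In VCaP 4 of the 9 genes rose and 1 fell, with 17.5% of all genes called in either direction. ERRFI1 rose from 39.7 and 41.4 to 202 and 147 CPM, 4.3-fold (log2 2.10 ± 0.22, adjusted p = 9.43e-04), and KLF9 fell from 11 and 8.48 to 3.03 and 2.93 CPM (log2 -1.70 ± 0.30, adjusted p = 0.00639). PER1 (6.83 and 9.67 to 20.9 and 16.9 CPM, log2 1.19 ± 0.32, adjusted p = 0.0306) and ZBTB16 (8.29 and 10.8 to 28.1 and 16.1 CPM, log2 1.21 ± 0.37, adjusted p = 0.0498) rose by smaller amounts. SGK1 (1.56 and 3.07 to 4.59 and 8.41 CPM, adjusted p = 0.0692) and CEBPD (19.8 and 8.81 to 21.7 and 36.1 CPM, adjusted p = 0.0941) were above in both libraries and did not pass with edgeR. DESeq2 called 7 members, adding these 2 genes. TSC22D3 was at 3.98 and 4.51 CPM with androgen. ERRFI1 held without each library, the KLF9 call ended without ACP androgen replicate 2, that of ZBTB16 without each of the 4 libraries, and that of PER1 without any of them but ACP stripped replicate 2. The 8 blood and immune markers summed to 82.8 to 158 CPM in the VCaP androgen libraries, with CD3E, TYROBP and HBB at 0, against 7.17 to 13.6 CPM in stripped serum, with those and MS4A1 at 0. Only CD74 and LYZ of the 8 were high enough to test in VCaP. Of these 2 genes 1 passed with edgeR and 2 with DESeq2. The 9 liver markers summed to 50.4 to 113 CPM with androgen and 324 to 384 CPM in stripped serum, with FGG and FGA at 0 in both, and SERPINA1 rose while ALB fell. The 7 fibroblast markers summed to 8.18 to 9.02 and 40.8 to 161 CPM, with COL1A2 at 0 in stripped serum, and DCN and LUM fell. Their part in these results was not tested.

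MDAPCa2a showed no call. With edgeR 0 of the 9 genes and 0% of all 13626 genes passed, 236 genes were below 0.05 before adjustment, and 3 genes, none a member, passed in DESeq2. The 8 genes other than SGK1 lay between log2 -0.27 and 0.02, with standard errors of 0.15 to 0.30. SGK1 had 20 and 14 reads in stripped serum and 7 and 3 reads with androgen (log2 -1.96 ± 0.58, adjusted p = 0.968), the only member with an unadjusted p below 0.05.

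**Figure D3:**
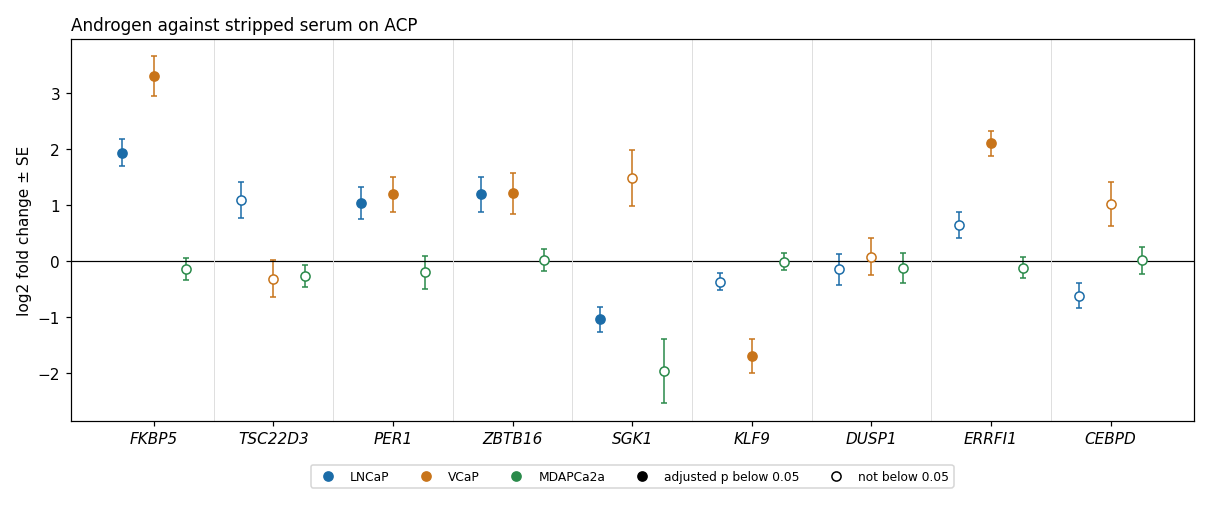
Log2 fold change with its SE for androgen against stripped serum on ACP in LNCaP, VCaP and MDAPCa2a, with filled points where the adjusted p lay below 0.05. FKBP5, PER1 and ZBTB16 are filled above 0 in LNCaP and VCaP, and every MDAPCa2a point is open, with FKBP5 at -0.14.

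The androgen effect of MDAPCa2a was lower than that of LNCaP for FKBP5 (log2 -2.05 ± 0.40, adjusted p = 0.00776), 1 of 9 with 1.12% of all genes called. This call ended without LNCaP ACP stripped replicate 1, LNCaP ACP androgen replicate 1 or MDAPCa2a ACP androgen replicate 2 (log2 -2.30 to -1.74). Against VCaP it was lower for FKBP5 (log2 -3.41 ± 0.41, adjusted p = 1.77e-05), ERRFI1 (log2 -2.18 ± 0.31, adjusted p = 1.69e-04) and SGK1 (log2 -3.40 ± 0.78, adjusted p = 0.00819) and higher for KLF9 (log2 1.74 ± 0.32, adjusted p = 0.00135), 4 of 9 with 7.86% called. FKBP5, ERRFI1 and KLF9 passed without any 1 library. The SGK1 call ended without MDAPCa2a ACP stripped replicate 1 or ACP androgen replicate 2, and rests on few reads. Both androgen differences share the MDAPCa2a libraries.

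RWPE could be compared on ACP with androgen and in control medium. FKBP5 was at 466, 633 and 804 CPM with androgen and 811 and 825 CPM in control medium (log2 -0.35 ± 0.22, adjusted p = 0.272). DUSP1 rose from 108 and 81.6 to 324, 129 and 266 CPM (log2 1.36 ± 0.33, adjusted p = 0.0234), 1 of 9, with 19.1% of all genes called. In the same comparison the 7 basal epithelium markers summed to 13818 to 17208 CPM in control medium and 3693 to 11805 CPM with androgen, none of them at 0, and 5 of 7 fell, KRT6A the most (log2 -1.71 ± 0.47, adjusted p = 0.0318). Their part in the DUSP1 result was not tested. The androgen libraries of FKBP5, DUSP1 and SGK1 (34.4, 39.2 and 15.7 CPM) spread widely, and the DUSP1 call ended without either ACP control library or ACP androgen replicate 1. On ACP against plastic in control medium, CEBPD rose in RWPE from 46.8 and 42.7 to 90.2 and 68.5 CPM (log2 0.85 ± 0.21, adjusted p = 0.0483), 1 of 9 with 4.16% of all genes called. SGK1 was at 12.2 and 15.8 and 35.9 and 34.3 CPM (log2 1.35 ± 0.35, adjusted p = 0.0575). ZBTB16 was lower on ACP in LNCaP, 13.6 and 14.6 against 30.7 and 33.8 CPM (log2 -1.09 ± 0.31, adjusted p = 0.0415), 1 of 9 with 12.6% called. VCaP had 0 of 9 called by edgeR and by DESeq2, 0 at an unadjusted p below 0.05, and 0.0448% of all genes called. The CEBPD and ZBTB16 calls ended without each of the 4 libraries compared and in a fit of all 34 libraries, and that of CEBPD also with RLE size factors. These surface comparisons in control medium rest on plastic control libraries as the reference.

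MDAPCa2a was compared with each other line at the same surface and kind of medium (control, stripped or with androgen) in the fit of all libraries. The base medium and serum content of MDAPCa2a differed from those of each other line, and its plastic carried a protein coat. In these comparisons they cannot be told apart from the line itself. Between lines 40.2% to 64% of all genes were called, so a count of members says little by itself, and the sizes are given. In control medium on plastic FKBP5 did not pass between MDAPCa2a and LNCaP (177 and 217 and 185 and 158 CPM, log2 0.20 ± 0.28, adjusted p = 0.606), nor between MDAPCa2a and VCaP (log2 -0.11 ± 0.28, adjusted p = 0.768). In stripped serum on plastic the FKBP5 difference was log2 3.58 ± 0.31 against LNCaP (adjusted p = 9.87e-10) and 3.32 ± 0.41 against VCaP (adjusted p = 3.96e-07). In stripped serum on ACP it was log2 2.37 ± 0.29 and 1.93 ± 0.29 (adjusted p = 4.58e-07 and 5.83e-06), and with androgen on ACP 0.32 ± 0.28 (adjusted p = 0.373) and -1.48 ± 0.29 (adjusted p = 1.29e-04). So in stripped serum FKBP5 lay above that of both lines, and with androgen below that of VCaP.

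Against LNCaP the called members were ERRFI1 higher and TSC22D3 and SGK1 lower in plastic control (3 of 9, 40.2% of all genes). In plastic stripped FKBP5, TSC22D3, PER1, ZBTB16, ERRFI1 and CEBPD were higher (6 of 9, 42.6%). In ACP stripped FKBP5, TSC22D3, PER1, ZBTB16 and ERRFI1 were higher and SGK1 and KLF9 lower (7 of 9, 45.5%). With androgen ZBTB16, ERRFI1 and CEBPD were higher and SGK1 lower (4 of 9, 45.3%). SGK1 was lower in MDAPCa2a, at log2 -2.06 ± 0.43 in plastic control, -2.93 ± 0.47 in ACP stripped and -3.83 ± 0.57 with androgen. In plastic stripped alone it lay above, by 0.87 ± 0.40 (adjusted p = 0.0819). ERRFI1 alone was called higher in all 4 settings, by log2 0.58 to 1.76. FKBP5, PER1 and CEBPD also had positive differences in all 4, of which 2 each passed. The ERRFI1 calls in plastic control (without LNCaP replicate 2 or MDAPCa2a replicate 1) and with androgen (without LNCaP replicate 2 or MDAPCa2a replicate 1) did not hold. With androgen the ZBTB16 call ended without LNCaP replicate 2 or MDAPCa2a replicate 2 and that of CEBPD without LNCaP replicate 1, and the KLF9 call in ACP stripped ended without each of the 4 libraries.

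In plastic control the largest difference from VCaP was in TSC22D3, at 82.7 and 77.5 CPM in MDAPCa2a and 2.74 and 3.13 CPM in VCaP (log2 4.76 ± 0.33, adjusted p = 1.85e-11), and log2 4.24 to 4.51 in the other settings. KLF9 was higher by log2 2.03 to 4.16. The counts were 5 of 9 higher (also DUSP1, ERRFI1 and CEBPD) and SGK1 lower in plastic control, with 52.4% of all genes called. They were 8 higher, all but DUSP1, in plastic stripped (45.3%), and 6 higher (FKBP5, TSC22D3, PER1, ZBTB16, KLF9 and ERRFI1) in ACP stripped (48.4%). With androgen 3 were higher (TSC22D3, ZBTB16 and KLF9) and 3 lower (FKBP5, SGK1 and ERRFI1), with 51.4% called. ERRFI1, higher in MDAPCa2a in stripped serum on ACP (log2 1.06 ± 0.22), was lower with androgen (log2 -1.12 ± 0.22). Calls that ended without 1 library were SGK1 in plastic control (without VCaP replicate 2 or either MDAPCa2a library), ZBTB16 and SGK1 in plastic stripped (without MDAPCa2a replicate 1) and ZBTB16 with androgen (without replicate 2 of either line). The lone VCaP library in plastic stripped could not be left out. Against RWPE 7 of 9 were lower in plastic control, all but ZBTB16 and DUSP1, with 56.7% called. The largest of these was PER1 (log2 -4.07 ± 0.34, adjusted p = 2.73e-10). With androgen 7 were lower and ZBTB16 was higher (log2 1.58 ± 0.31, adjusted p = 9.41e-05), with 64% called. SGK1 was at log2 -6.76 ± 0.55 there, on 7 and 3 reads in MDAPCa2a. Against RWPE the ERRFI1 and CEBPD calls in plastic control and the FKBP5 call with androgen ended without 1 library: ERRFI1 without replicate 2 of either line, CEBPD without either RWPE library or MDAPCa2a replicate 1, FKBP5 without MDAPCa2a replicate 2.

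**Figure D4:**
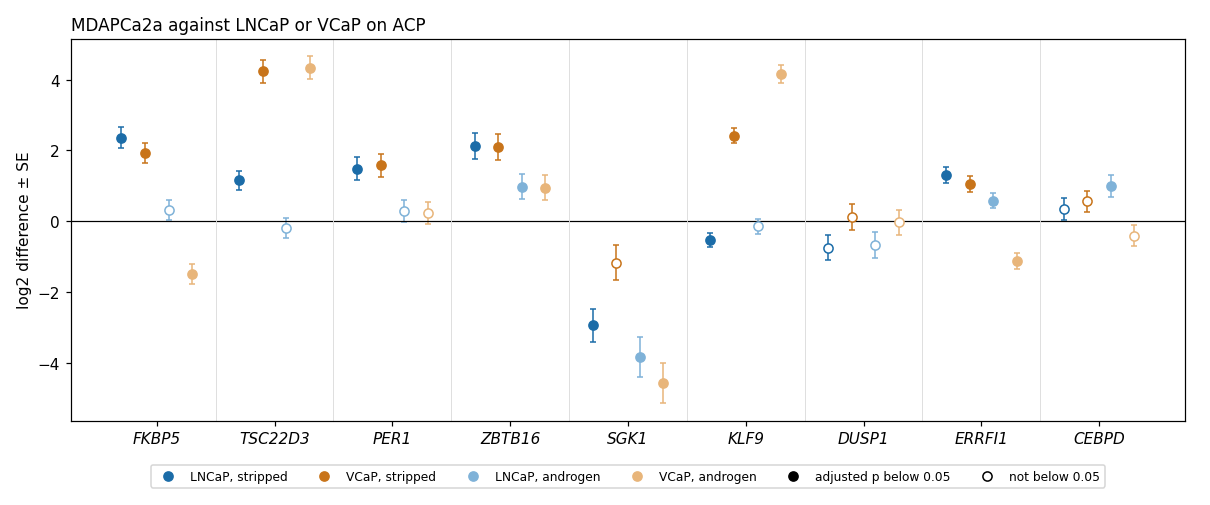
Log2 difference with its SE between MDAPCa2a and LNCaP or VCaP on ACP, in stripped serum (dark) and with androgen (light), with filled points where the adjusted p lay below 0.05. FKBP5 lies at 1.93 against VCaP in stripped serum and at -1.48 with androgen, and TSC22D3 lies above 4 against VCaP in both.

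The receptor of glucocorticoids, NR3C1, was read in every library and split the lines. It was at 113 to 140.0 CPM in RWPE, 0.51 to 2.58 CPM in LNCaP, 4.43 to 14 CPM in VCaP and 18.5 to 63.3 CPM in MDAPCa2a, with no overlap between any lines. MDAPCa2a lay above LNCaP by log2 4.69 ± 0.35 in plastic control, 5.06 ± 0.40 in plastic stripped, 5.40 ± 0.38 in ACP stripped and 5.96 ± 0.40 with androgen. Above VCaP it lay by 1.61 to 3.24. All of these passed (largest adjusted p = 0.00227). Within MDAPCa2a, NR3C1 was lower in stripped serum on plastic, at 29.4 and 18.5 CPM against 63.3 and 54.2 CPM in control medium (log2 -1.26 ± 0.24, adjusted p = 0.0405). On ACP it was at 44.6 and 62.4 CPM in stripped serum and 51.2 and 60.2 CPM with androgen. HSD11B2, which turns cortisol into inactive cortisone, was higher in the same comparison, 204 and 152 against 87.7 and 99.3 CPM (log2 0.96 ± 0.18, adjusted p = 0.0373), and at 92.6 and 83.7 and 98.3 and 99.7 CPM on ACP. The group with the highest FKBP5, PER1 and SGK1 in MDAPCa2a was therefore also the one with the lowest NR3C1 and the highest HSD11B2. HSD11B1, which makes cortisol from cortisone, had 0 reads in all MDAPCa2a libraries but plastic control (0.298 and 0.165 CPM). The other lines showed the same, with 3 to 18 reads in plastic control libraries and 0 or 1 in every other library. In LNCaP NR3C1 was lower in stripped serum on plastic too (log2 -1.65 ± 0.38, adjusted p = 0.0199), at levels under 3 CPM.

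The mineralocorticoid receptor NR3C2, which also binds cortisol, was at 8.09 and 6.29 CPM in plastic control and 6.51 and 8.88 CPM in plastic stripped MDAPCa2a (log2 0.13 ± 0.25, adjusted p = 0.861). FKBP4, the paralog of FKBP5 that favours receptor activity, was at 295 and 316 and 284 and 291 CPM there (log2 -0.05 ± 0.17, adjusted p = 0.918). Of 11 genes of the receptor chaperone complex, FKBP4 among them, 0 passed in stripping or in androgen addition in LNCaP, VCaP or MDAPCa2a with edgeR. Of all genes, 0% to 17.5% were called in these comparisons, 1.58% with stripping and 0% with androgen in MDAPCa2a. In MDAPCa2a 0 were below 0.05 before adjustment and 0 passed in DESeq2 in either comparison, while in LNCaP and VCaP 0 to 3 were below 0.05 before adjustment and 0 to 2 passed in DESeq2, ST13 and STIP1 with androgen in VCaP and ST13 with stripping on ACP in LNCaP.

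**Figure D5:**
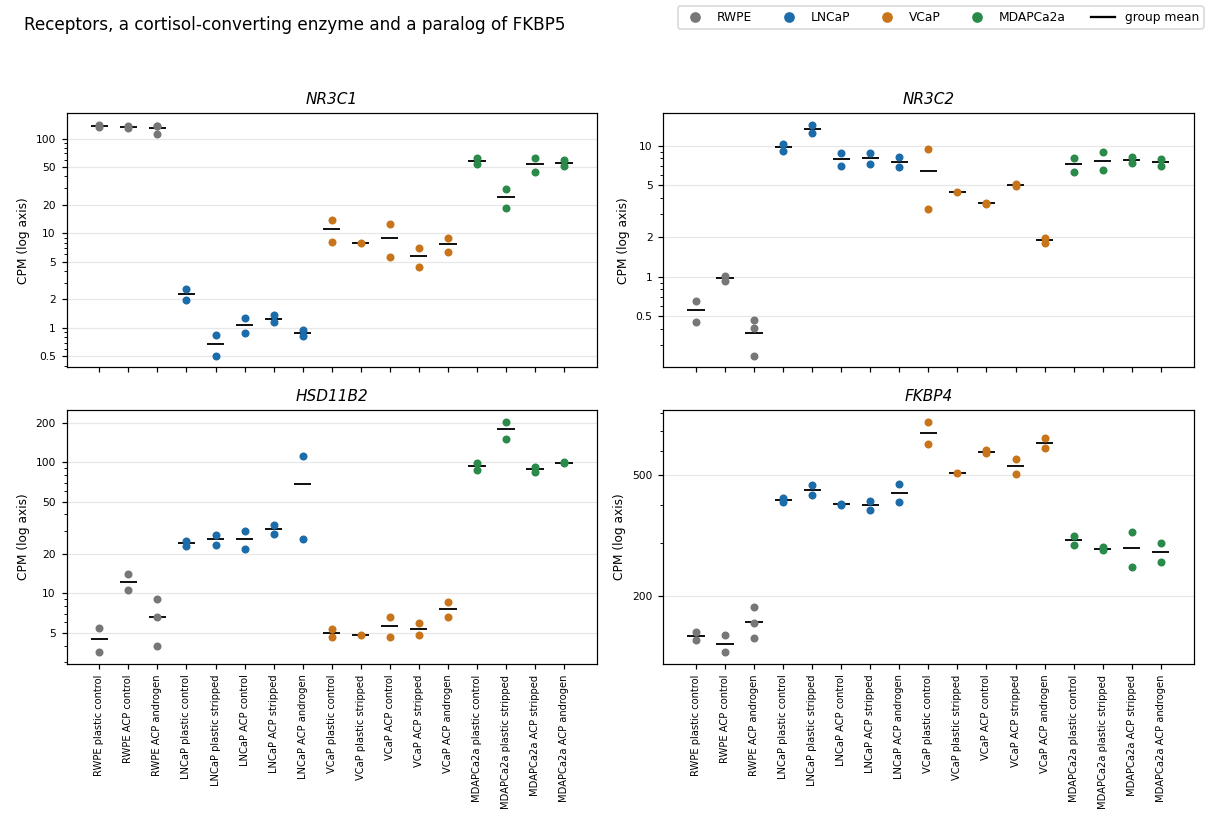
Levels in CPM on a log axis of NR3C1, NR3C2, HSD11B2 and FKBP4, with 1 point per library and a black line at each group mean. NR3C1 separates the lines, and in MDAPCa2a its plastic stripped libraries (29.4 and 18.5 CPM) lie below all other libraries of the line.

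Other genes known to rise with glucocorticoids, a list of 30, held no call in MDAPCa2a with edgeR. In stripped serum on plastic 0 of 26 tested passed, where 1.58% of all genes did, with a median of log2 0.08 and 14 above 0. Before adjustment 6 were below 0.05, as were 2208 of all 13626 genes, and 3 passed in DESeq2, CRISPLD2 (log2 1.48 with edgeR), GLUL (0.62) and MAOA (1.11). With androgen 0 of 26 and 0% of all genes passed, 0 of the 26 were below 0.05 before adjustment and 0 passed in DESeq2, with a median of -0.11. In LNCaP 5 fell and 1 rose with stripping on plastic, SLC19A2 (log2 -1.17 ± 0.18, adjusted p = 0.00296), DDIT4 (log2 -1.80 ± 0.30, adjusted p = 0.00458), IRS2, BCL6 and TAT falling and FOXO3 (log2 0.81 ± 0.16, adjusted p = 0.00988) rising, 6 of 26 with 9.45% of all genes called. On ACP DDIT4 alone fell with stripping (log2 -1.35 ± 0.30, adjusted p = 0.0256), with 5.37% of all genes called. With androgen 4 of 26 rose in LNCaP, the insulin receptor substrate IRS2 most (log2 2.97 ± 0.31, adjusted p = 4.19e-04), then RASD1, SLC19A2 and MAOA, with 7.73% of all genes called. In VCaP 3 of 27 rose, the lipid transporter MFSD2A most (log2 2.84 ± 0.50, adjusted p = 0.00643), with TNFAIP3 and STOM, a smaller share than the 17.5% of all genes called. Between lines, the stripping effect of MDAPCa2a was higher than that of LNCaP for PDK4 alone (adjusted p = 0.0213, with both stripped LNCaP libraries at 0 reads, so that no size is given) and than that of VCaP for MFSD2A alone (log2 2.53 ± 0.70, adjusted p = 0.0441), 1 of 29 each, with 1.81% and 3.12% of all genes called. In RWPE 6 of 28 rose on ACP in control medium, with ALOX15B the largest (log2 2.43 ± 0.50, adjusted p = 0.0286), where 4.16% of all genes were called. With androgen 4 of 28 fell, TFCP2L1 the most (log2 -1.18 ± 0.17, adjusted p = 0.0147), a smaller share than the 19.1% of all genes called. The lists were chosen with earlier results known, and share no gene with the 9.

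Androgen-induced genes outside the 9, a list of 16, moved in LNCaP and VCaP and held no call in MDAPCa2a. With androgen 14 rose in LNCaP (7.73% of all genes called) and 12 in VCaP (17.5%), STEAP4 the most (log2 4.84 ± 0.69, adjusted p = 0.0023 and log2 6.83 ± 1.19, adjusted p = 0.00611). In MDAPCa2a 0 rose (0% of all genes called), the median was log2 -0.23, 0 were below 0.05 before adjustment and 0 passed in DESeq2. With stripping on plastic 12 fell in LNCaP (9.45% of all genes called), the kallikrein KLK3 most (log2 -4.41 ± 0.20, adjusted p = 1.96e-06). In MDAPCa2a 0 passed (1.58% of all genes called) and 13 of 16 lay above 0 with a median of log2 0.62. Of those 16, 12 were below 0.05 before adjustment and 4 passed in DESeq2, ABCC4, ACSL3, HERC3 and KLK2. KLK2 went from 611 and 701 to 1275 and 1324 CPM there (adjusted p = 0.0516). KLK3 in MDAPCa2a was at 5349 and 5557 CPM in plastic control, 7496 and 8666 CPM in plastic stripped, 11697 and 7006 CPM in ACP stripped and 6772 and 7286 CPM with androgen, and so no lower in stripped serum than in control medium. TMPRSS2 in the same groups was at 740.3 and 749, 987 and 1262, 1302 and 875 and 909 and 854 CPM. The stripping effect of MDAPCa2a was higher than that of LNCaP for 12 of the 16 (1.81% of all genes called), KLK3 the most (log2 5.02 ± 0.76, adjusted p = 3.06e-04), and higher than that of VCaP for 6 (3.12%), TMPRSS2 the most (log2 3.19 ± 0.73, adjusted p = 0.0151). Its androgen effect was lower for 8 of 16 against each, HERC3 the most against LNCaP (log2 -3.75 ± 0.48, adjusted p = 7.32e-05) and STEAP4 against VCaP (log2 -7.15 ± 1.15, adjusted p = 4.54e-04). The shares of all genes called in these 2 comparisons were unlike, 1.12% against LNCaP and 7.86% against VCaP.

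Of 13 clock genes other than PER1, its relative PER3 fell with androgen in LNCaP (log2 -0.86 ± 0.18, adjusted p = 0.0174), 1 of 13 with 7.73% of all genes called, and 2 of 12 fell in VCaP, DBP the most (log2 -1.30 ± 0.36, adjusted p = 0.0356), with 17.5% of all genes called. In MDAPCa2a 0 of 12 passed with stripping on plastic (2, CRY1 and PER2, at an unadjusted p below 0.05, 0 with DESeq2) or with androgen (0 and 0), where 1.58% and 0% of all genes passed. Of 15 relatives of the members tested in MDAPCa2a, DUSP2 rose (log2 1.53 ± 0.27, adjusted p = 0.0343) and the ERK phosphatase DUSP6 fell (adjusted p = 0.0357) in MDAPCa2a with stripping on plastic, with 1.58% of all genes called. Of 12 inflammatory genes that glucocorticoids repress, 2 were high enough to test in MDAPCa2a, and 0 passed with edgeR, 0 at an unadjusted p below 0.05 and 0 with DESeq2, with stripping on plastic (1.58% of all genes called) or androgen (0%). In VCaP 2 of 8 rose with androgen, CXCL8 the most (log2 4.40 ± 0.75, adjusted p = 0.00555), with 17.5% of all genes called. Immediate early genes, which like DUSP1 respond quickly to growth factors and stress, gave 0 of 12 with edgeR in MDAPCa2a for stripping on plastic (3 at an unadjusted p below 0.05, ATF3 and IER3 called by DESeq2) and for androgen (0 and 0), where 1.58% and 0% of all genes passed. With androgen in VCaP 6 of 12 passed, where 17.5% of all genes did, 4 of them higher, ATF3 the most (log2 3.87 ± 0.47, adjusted p = 0.00151), and 2 lower, BTG2 the most (log2 -1.67 ± 0.22, adjusted p = 0.00213).

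The members did not all follow FKBP5. Over the 17 group means, with the mean of each line taken out, FKBP5 correlated across groups with PER1 at r = 0.89, with ERRFI1 at 0.83 and with ZBTB16 at 0.60, and with KLF9 at -0.52. SGK1 and CEBPD went together (0.82), as did PER1 and ZBTB16 (0.75), and KLF9 and ERRFI1 lay at -0.65. DUSP1 was near 0 with FKBP5 (-0.07). Group means share libraries, lines and depth, so these values are a description. The genes most like FKBP5 in that measure, of 13218, were HOMER2 (0.95), ACSL3 (0.94), MBOAT2 (0.94), PEX10 (0.93) and ORM2 (0.92), with PER1 at rank 13. ORM2 was high enough to enter through VCaP with androgen on ACP, where FKBP5 was also highest (a mean of 6.94 CPM against at most 1.13 CPM in any other group, and 0 in RWPE), so its likeness follows in part from how it entered. With line means kept they were ERRFI1 (0.92), STRN (0.90), NRD1 (0.89), HIF1A (0.86) and HK1 (0.86). HOMER2, a scaffold protein, had a mean of 199 CPM in plastic control and 351 CPM in plastic stripped MDAPCa2a, 54.8 and 21.8 CPM in the same groups of LNCaP, and 85.6 and 518 CPM without and with androgen in VCaP on ACP. ACSL3, an acyl-CoA synthetase and a member of the androgen-induced list, had means of 458 and 748 CPM, 237 and 103 CPM, and 225 and 1581 CPM in those groups.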

How the data were processed

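Poly(A) RNA-seq counts per gene were used as the authors deposited them, in 1 table of whole-number counts for 26336 genes and 34 libraries. Per the submitters' processing notes, STAR, HTSeq and the hg19 build were used, with no versions, and whether counting used strand is not given in the sources used here. MIR6883 overlaps PER1 exons on the same strand. Genes were tested with edgeR 4.0.16 in R 4.3.3: TMM scaling, low genes removed by filterByExpr (minimum count 10), quasi-likelihood F tests and Benjamini-Hochberg adjustment, 0.05 being the threshold. Comparisons within a line were fitted on that line's libraries, and comparisons between lines and differences of effects on all 34 libraries. CPM used TMM library sizes over all 34. A standard error is the log2 change divided by the square root of F. Depth was 15.4 to 44.8 M counts. Named by rule were the 9 members, receptor and steroid genes, FKBP4, KLK3, KLK2 and TMPRSS2, the 5 genes most like FKBP5 (of those with at least 5 CPM in 1 group), and from each list the largest rise and fall called; other list genes were named after their values were seen. Members and lists were chosen with earlier results of these data known. Scripts were tested on simulated data. Alternatives were RLE size factors, no count filter, a replicate block, DESeq2 1.42.0, leaving out each library, a fit of all libraries and, added after seeing the data, leaving out the 8 plastic control libraries. One gene of the lists is not reported here, though list counts include it.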

Additional observations from a re-analysis of the deposited data

Results flagged for a closer look

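Differences of effects between MDAPCa2a and another line passed the threshold for 14 values (edgeR, adjusted over all genes). The androgen effect was lower in MDAPCa2a than in LNCaP for FKBP5 (log2 -2.05). Against VCaP it was lower for FKBP5 (-3.41), SGK1 (-3.40) and ERRFI1 (-2.18) and higher for KLF9 (1.74). The effect of stripped serum on plastic was higher than in LNCaP for FKBP5 (3.37), TSC22D3 (2.57), PER1 (2.68), ZBTB16 (2.35) and SGK1 (2.93), and than in VCaP for FKBP5 (3.43), PER1 (2.58) and SGK1 (3.04). The effect of ACP in stripped serum was lower than in LNCaP for SGK1 (-3.81).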

How the results depend on the processing

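Counts of members called are given here by alternative. Without a count filter and with DESeq2 they were 2 and 2 for VCaP stripping on ACP, 1 and 1 for VCaP stripping on plastic, 6 and 6 for MDAPCa2a stripping on plastic, 2 and 2 for LNCaP surface in stripped serum, 4 and 4 for MDAPCa2a surface in stripped serum, 2 and 2 for RWPE surface, and 2 and 2 for the androgen and surface differences of MDAPCa2a and LNCaP. DESeq2 gave 1 for the surface difference with VCaP. The fit of all 34 libraries gave 2 and 1 for VCaP stripping on ACP and plastic, 0 and 1 for LNCaP and MDAPCa2a surface in stripped serum, 0 for LNCaP surface in control medium and 2 for RWPE androgen. Without the 8 plastic control libraries, LNCaP androgen had 2 and LNCaP surface in stripped serum 0. RLE size factors gave 0 for RWPE surface. With a replicate block RWPE surface had 2 and RWPE androgen 3. The block moved no other count by over 1.5 times, added 9 calls of 279 values and ended 0. The difference between replicates 1 and 2 was correlated across genes for 25 pairs of groups of 1 line. The values ran from -0.397 to 0.322, 6 of them over 0.1, and were highest for MDAPCa2a on ACP in stripped serum and with androgen. A pairing of libraries by replicate number is neither shown nor excluded by them.

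Leaving out 1 library gave 1 to 4 members for LNCaP androgen, 2 to 4 for VCaP androgen, 0 to 3 for LNCaP stripping on ACP, 0 to 2 for LNCaP and 0 to 0 for MDAPCa2a stripping on plastic, 0 to 0 and 0 to 1 for LNCaP and MDAPCa2a surface in stripped serum, 0 to 0 and 0 to 1 for RWPE and LNCaP surface in control medium, 0 to 4 for RWPE androgen and 0 to 1 for the androgen difference with LNCaP. Of 1260 such values 97 lost and 17 gained a call, and of 1431 under the other alternatives 12 lost and 71 gained one. In 0 of them did a called value change sign. Of the 5 genes most like FKBP5, 3 to 5 were kept under 2 other settings. With 2 libraries in most groups and 4 or 5 residual degrees of freedom per line, small changes were not detectable, and SGK1 in MDAPCa2a on ACP rests on 3 to 20 reads per library.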
